A study of Homo sapiens with 6 samples.

Results

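The BCL2 family decides whether a cell opens the outer membrane of its mitochondria and dies by apoptosis. The data described here are the messenger RNA levels of 10 genes of this family, chosen by name and by role, out of 35993 genes in the deposited table. They were the anti-apoptotic genes BCL2, BCL2L1 and MCL1, the effectors BAX and BAK1, and the BH3-only genes BCL2L11, BBC3, PMAIP1, BID and BMF. All 10 passed the filter on low counts, which kept 14728 genes. RNA-seq was done in MIA PaCa-2, an established human pancreatic cancer cell line, which is a single line and not a panel of tumors. One group of 3 libraries came from untreated cells and the other group of 3 from cells given rhCYGB, recombinant human cytoglobin made in bacteria, at 4 µM for 48 h. Cells were plated in 24-well plates and kept in medium with 1% fetal bovine serum before rhCYGB was added, and whether the untreated cells received the protein's buffer is not given in the sources used here. The libraries of a group are called 1, 2 and 3, and nothing in the labels says that they were separate cultures, so the p-values measure the spread between these libraries.

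As background, the family works by binding between its members. Anti-apoptotic proteins such as BCL2, BCL-xL (from BCL2L1) and MCL1 hold the effectors BAX and BAK in check. BH3-only proteins carry a single short domain, the BH3 domain, with which they occupy the groove of the anti-apoptotic proteins or activate BAX and BAK directly. Once active, BAX and BAK form pores through which cytochrome c leaves the mitochondria, and the apoptosome then switches on the caspases. Pancreatic cancer cells are known to lean on BCL-xL and MCL1 for survival. Much of the control of these proteins lies in their stability, processing and location, none of which RNA-seq measures.

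The libraries held between 34838399 and 42271299 read counts. Counts relative to the library size after scaling are given as CPM (normalized read counts) and serve to compare the groups. FPKM values, which are also relative to transcript length, serve to compare one gene with another. Differences are log2 fold changes of rhCYGB against untreated with their standard error (SE), tested with edgeR's quasi-likelihood test and adjusted by Benjamini-Hochberg over all genes tested, and a gene was called where the adjusted p was under 0.05 and the change at least 2-fold. The median log2 fold change over all genes was -0.0046 with the TMM scaling used here, and it moved by -0.16 when libraries were scaled to total counts. Of 6 markers listed for an epithelial cancer line, the keratins KRT8, KRT18 and KRT19 and the mesenchymal gene VIM were abundant, whereas EPCAM had 0 counts in all 6 libraries and CDH1 was under 1 CPM, so the label of a carcinoma line rested on keratins. KRT8 (log2 -0.81) and KRT19 (-0.61) fell and VIM (0.55) rose at an edgeR adjusted p under 0.05. The summed CPM of 6 fibroblast markers ranged from 148.003 to 159.1 in untreated and from 11.5 to 13.6 in rhCYGB libraries, with COL1A2 making up nearly all of it in untreated libraries and COL1A2 and ACTA2 most of it in rhCYGB libraries. The 3 endothelial markers summed to between 108.9 and 121.8 CPM in untreated and between 10.5 and 13.6 CPM in rhCYGB libraries, nearly all of it CDH5, while PECAM1 was at 0. The 3 leukocyte markers were CD68, PTPRC and CD3E, of which PTPRC and CD3E were at 0, and summed to between 34.3 and 38.0 CPM in untreated and between 70.4 and 72.4 CPM in rhCYGB libraries. The part of these marker changes in the results below was not tested.

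Members of both camps rose after rhCYGB, and the largest rises were among the BH3-only genes. BBC3, PMAIP1, BCL2L11 and BCL2L1 were called higher, and 3 of these 4 are pro-apoptotic. Thus 4 of 10 members were called higher, where 12.4% of all genes tested were called higher, and 0 were called lower with edgeR after TMM scaling or with DESeq2, where 14.7% of all genes were. With upper-quartile or total-count scaling, edgeR called 5 members, the added one being BID, which was lower. Without the limit on the fold, 6 members were higher at an adjusted p under 0.05, against 39.0% of all genes, and 2 were lower, against 38.6%. Groups did not overlap in CPM for 7 members, against 79.5% of all genes, so a separation of the groups was ordinary in these data. The median log2 fold change was 0.23 over the 10 members and 0.19 over the 7 pro-apoptotic ones.

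**Figure D1:**
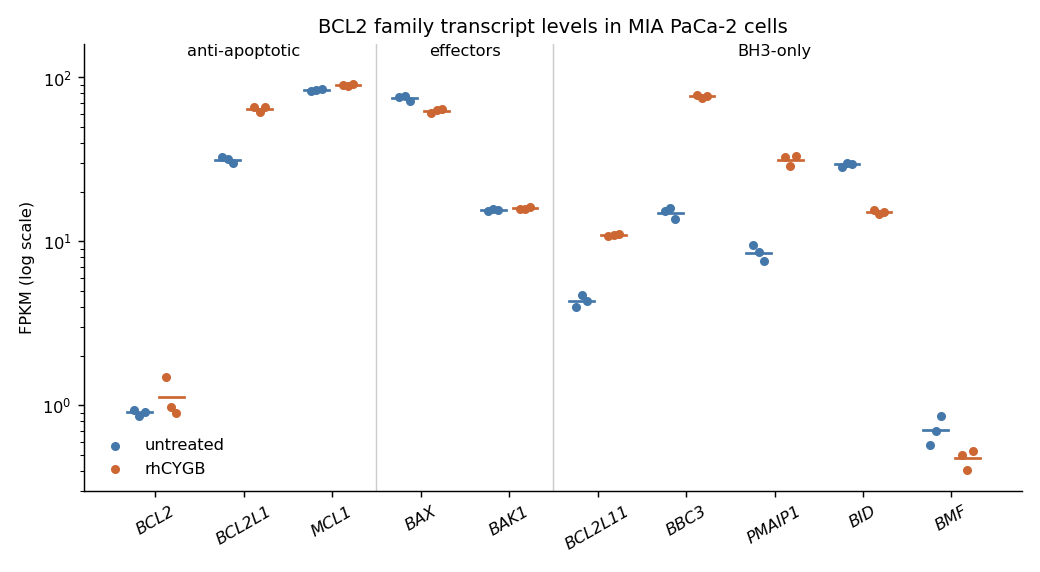
FPKM (log scale) of the 10 members in each library; points are libraries, horizontal bars are group means, and vertical lines part the roles. BBC3 and PMAIP1 show the widest gap upward, BID the clearest gap downward, and MCL1 stays at the top in both groups.

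Among the anti-apoptotic genes, BCL2L1 rose and MCL1 rose slightly, whereas BCL2 did not pass the test. BCL2L1 encodes BCL-xL. Its level was 88.95, 85.9 and 80.1 CPM in untreated and 199.2, 191.3 and 197.8 CPM in rhCYGB libraries. All rhCYGB libraries lay far above all untreated ones, and the log2 fold change was 1.21 (SE 0.043, edgeR adjusted p = 1.25e-12), a 2.31-fold rise.

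MCL1, which encodes a short-lived protein that holds BAK and binds NOXA, had 353.7, 357.8 and 357.5 CPM in untreated and 426.01, 429.4 and 423.4 CPM in rhCYGB libraries. The groups did not overlap, and the rise of 1.20-fold was small (log2 0.26, SE 0.033, edgeR adjusted p = 3.27e-06), and smaller still with total counts (log2 0.09, edgeR adjusted p = 0.0154). BCL2, the founding member of the family, was weakly expressed, with 6.60, 5.85 and 6.03 CPM in untreated and 6.25, 5.95 and 5.56 CPM in rhCYGB libraries. The groups overlapped, the log2 fold change was -0.06 (SE 0.12, edgeR adjusted p = 0.669), and its 95% interval ran from -0.30 to 0.19. The direction for BCL2 turned positive in FPKM, at 0.14 on the log2(FPKM + 1) scale, where a short transcript weighs more.

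The effectors moved little. BAX had 97.2, 98.6 and 91.3 CPM in untreated and 91.7, 96.6 and 93.5 CPM in rhCYGB libraries, and the groups overlapped. Its log2 fold change was -0.03 (SE 0.043, edgeR adjusted p = 0.575), with a 95% interval from -0.12 to 0.07. This depended on the scaling, since with total counts BAX fell by 0.19 on the log2 scale (edgeR adjusted p = 0.00114), about as far as the median gene moved. BAK1 had 36.1, 36.97 and 35.97 CPM in untreated and 41.02, 42.1 and 41.6 CPM in rhCYGB libraries. The groups did not overlap and the rise was 1.14-fold (log2 0.19, SE 0.048, edgeR adjusted p = 0.0018), but with total counts it was 0.03 (edgeR adjusted p = 0.598). Neither effector was called under any scaling, and for both the scaling decided whether the adjusted p was under 0.05.

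The BH3-only genes split. BBC3, PMAIP1 and BCL2L11 rose between 2.81- and 5.76-fold, while BID and BMF fell. BBC3 encodes PUMA, which binds every anti-apoptotic member. It had 30.4, 31.5 and 26.4 CPM in untreated and 171.8, 170.9 and 166.6 CPM in rhCYGB libraries. Libraries within a group lay close together and the groups far apart, and the log2 fold change of 2.53 (SE 0.056, edgeR adjusted p = 7.37e-15) was the largest among the 10 members.

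PMAIP1 encodes NOXA, which binds MCL1 and promotes its degradation. It had 19.6, 17.5 and 15.3 CPM in untreated and 74.3, 67.1 and 74.7 CPM in rhCYGB libraries. The rise was 4.13-fold, a log2 fold change of 2.05 (SE 0.075, edgeR adjusted p = 1.61e-12). BCL2L11 encodes BIM, an activator of BAX and BAK that FOXO factors are known to induce. Its level of 21.3, 25.5 and 23.05 CPM in untreated libraries stood against 64.5, 66.7 and 65.7 CPM in rhCYGB libraries, and the log2 fold change was 1.49 (SE 0.061, edgeR adjusted p = 5.04e-12).

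BID, whose protein is cut by caspase-8 and then carries the death receptor signal to mitochondria, went the other way. It had 67.9, 71.8 and 70.005 CPM in untreated and 39.1, 38.6 and 37.95 CPM in rhCYGB libraries. All rhCYGB libraries were below all untreated ones, and BID was 1.82-fold lower (log2 -0.86, SE 0.046, edgeR adjusted p = 1.20e-10), short of the limit of 2. With total counts it passed that limit, at a log2 fold change of -1.03. BMF, which encodes a BH3-only protein tethered to the myosin V motor through a dynein light chain, was near the bottom of the range, with 109, 161 and 178 read counts in untreated and 105, 78 and 109 in rhCYGB libraries. The groups overlapped, since rhCYGB library 3 with 2.96 CPM lay just above untreated library 1 with 2.93 CPM, and its log2 fold change was -0.42 (SE 0.18, edgeR adjusted p = 0.0481). BMF, which was short of 2-fold, no longer passed the adjusted p under 7 of 15 alternatives, over which the edgeR, DESeq2 or limma adjusted p ranged from 0.00902 to 0.239. It did not pass without untreated library 2 (edgeR adjusted p = 0.0914) or 3 (0.239) and without rhCYGB library 1 (0.0682) or 2 (0.135).

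**Figure D2:**
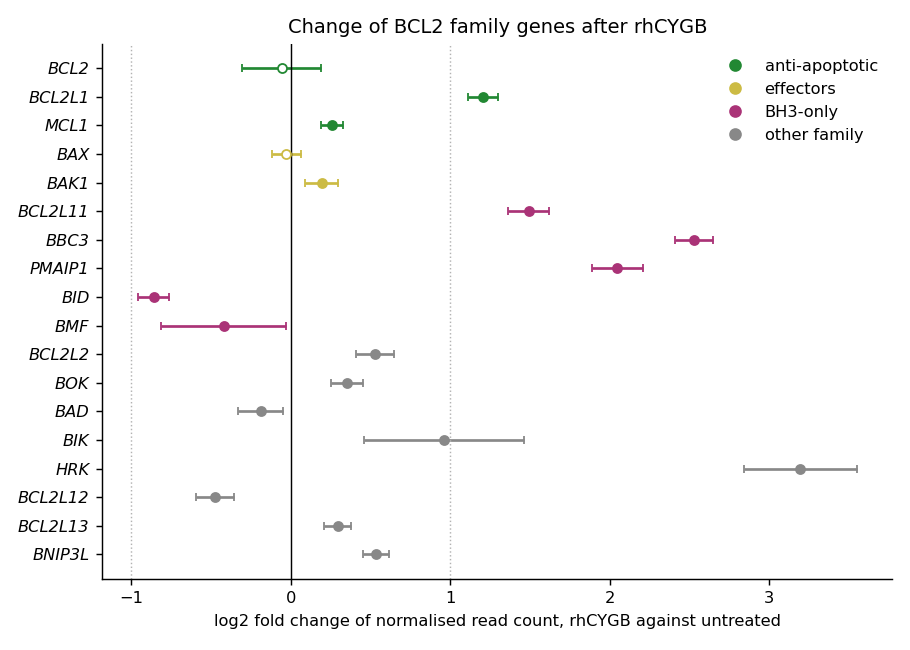
Log2 fold change of read counts (edgeR, rhCYGB against untreated) with its 95% interval for the 10 members and for the 8 other family genes that could be tested; open points did not pass an adjusted p of 0.05, and dotted lines mark 2-fold. BBC3 at 2.53 and PMAIP1 at 2.05 lead the members, HRK at 3.19 leads the others, and BID at -0.86 is the lowest.

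The starts of the genes that rose were read from the RefSeq promoter table (build GRCh38.p14), which held 15 windows for 9 of the 10 members, each from 250 bases before to 50 bases after a start. MCL1 had none. PMAIP1 and BCL2L11 are shown because each rose over 2-fold and had a single window near the start of the counted transcripts. The part before the start is given, with matches to a CRE core or a FOXO motif in capitals.
PMAIP1, chr18:59899746-59899995, plus strand: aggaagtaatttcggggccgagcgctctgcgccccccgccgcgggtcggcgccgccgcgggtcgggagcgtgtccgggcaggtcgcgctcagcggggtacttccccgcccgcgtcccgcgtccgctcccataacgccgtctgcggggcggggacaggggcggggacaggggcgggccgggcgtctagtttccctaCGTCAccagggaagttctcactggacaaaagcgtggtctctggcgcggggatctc
BCL2L11, chr2:111120664-111120913, plus strand: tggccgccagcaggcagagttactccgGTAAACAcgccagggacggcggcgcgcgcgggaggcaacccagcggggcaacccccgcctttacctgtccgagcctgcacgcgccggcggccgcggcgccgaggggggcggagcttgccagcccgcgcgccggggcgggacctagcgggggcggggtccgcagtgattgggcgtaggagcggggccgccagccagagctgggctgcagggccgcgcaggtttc
In PMAIP1 the capitals mark the core of the cAMP response element, TGACG, here on the opposite strand and 55 bases before the start. In BCL2L11 the capitals mark GTAAACA, the motif of FOXO factors, 223 bases before the start. The TGACG core stood in 5 of the 15 member windows, those of PMAIP1 and BCL2L1, which rose, and of BCL2, BAX and BMF, which did not, and in 24.6% of all 35116 windows, and the FOXO motif stood in 1 member window and in 3.42% of all windows. Searched on both strands, the full element TGACGTCA (1.85% of all windows) and the CHOP-ATF composite TGATGNAA (3.62%) matched 0 member windows. The heat shock element GAANNTTC matched windows of BAK1 and BMF (6.77% of all windows), and the GC box GGGCGG matched 10 member windows (45% of all windows). Several of the windows with a GC box were those of BID, which overlap in part, so they are not separate counts. The TATA box TATAAA matched BCL2L1 (11.5%), the NF-kB site matched BMF (5.91%), and the E2F motif TTTCGCGC matched 0 (0.515%). The TGACG core is part of TGACGTCA, and GAANNTTC reads the same on both strands. The window of BBC3 is not shown, because it lies at the start of variants 1 to 3, while variant 4, which held nearly all BBC3 reads, started 1468 bases downstream in the deposited positions.

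The order of the levels changed within the family. In untreated cells MCL1 was highest with 84.2 ± 1.10 FPKM (SD, n = 3), followed by BAX with 75.02 ± 2.37 and BCL2L1 with 31.5 ± 1.31 FPKM. BID stood at 29.5 ± 0.896 FPKM and overlapped BCL2L1, and BAK1 at 15.6 ± 0.213 FPKM overlapped BBC3 at 15.0 ± 1.12 FPKM. PMAIP1 (8.56 ± 0.992), BCL2L11 (4.33 ± 0.365), BCL2 (0.908 ± 0.039) and BMF (0.713 ± 0.147 FPKM) came last, and BCL2 and BMF overlapped.

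After rhCYGB, MCL1 was still highest with 89.9 ± 1.30 FPKM. BBC3 had gone from the sixth to the second place with 76.6 ± 1.30 FPKM, above BCL2L1 at 64.6 ± 2.56 and BAX at 62.8 ± 1.71 FPKM, which overlapped each other. PMAIP1 reached 31.6 ± 2.54 FPKM and passed BAK1 at 15.9 ± 0.280 and BID at 15.2 ± 0.378 FPKM. BCL2L11 (11.0 ± 0.190), BCL2 (1.12 ± 0.324) and BMF (0.478 ± 0.065 FPKM) kept the last places.

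Summed by role over the 10 members, the BH3-only genes gained most. Their FPKM summed to 57.8, 60.1 and 56.2 in untreated and to 137.4, 130.1 and 136.9 in rhCYGB libraries, 2.32 times the untreated mean. The anti-apoptotic genes summed to 116.5, 117.2 and 116.1 FPKM in untreated and to 157.7, 150.98 and 157.9 FPKM in rhCYGB libraries, a ratio of 1.33. The effectors summed to 90.6 ± 2.41 FPKM in untreated and 78.7 ± 1.86 FPKM in rhCYGB cells, a ratio of 0.868 that became 1.01 when scaled counts per longest transcript replaced FPKM, so no direction is given for them. With these scaled counts the BH3-only ratio was 2.72 and the anti-apoptotic ratio 1.49, so the size of both depended on the scale.

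Set against each other within a library, where scaling cancels, the ratio of BH3-only to anti-apoptotic FPKM was 0.497, 0.513 and 0.484 in untreated and 0.871, 0.862 and 0.867 in rhCYGB libraries. The ratio of all 7 pro-apoptotic to the 3 anti-apoptotic genes moved far less, from 1.27 ± 0.031 to 1.37 ± 0.015. It differs from the first ratio only by the effectors, which summed to 90.6 FPKM in untreated and 78.7 FPKM in rhCYGB cells. The groups did not overlap in either ratio, and a sum of FPKM gives the balance of RNA, not of protein.

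The make-up of each role shifted too. MCL1 held 72.2 ± 1.06% of the anti-apoptotic FPKM in untreated and 57.8 ± 0.698% in rhCYGB cells, and BCL2L1 went from 27.1 ± 1.06% to 41.5 ± 0.605%. BCL2 held under 1% in each library. Among BH3-only genes, BID went from 50.8 ± 1.90% to 11.3 ± 0.124%, while BBC3 went from 25.7 ± 1.16% to 56.9 ± 0.927% and PMAIP1 from 14.7 ± 1.58% to 23.4 ± 1.22%. The share of BCL2L11 was 7.46 ± 0.509% in untreated and 8.14 ± 0.313% in rhCYGB libraries. Within single pairs, the ratio of PMAIP1 to its partner MCL1 was 0.115, 0.102 and 0.0888 in untreated and 0.363, 0.324 and 0.367 in rhCYGB libraries.

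**Figure D3:**
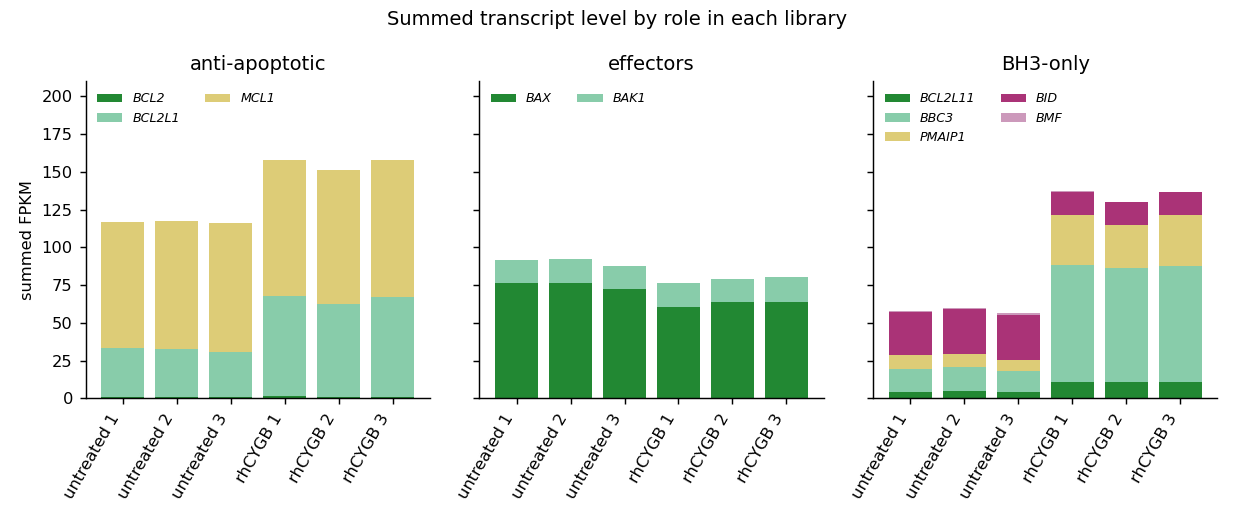
Summed FPKM of the anti-apoptotic, effector and BH3-only members in each of the 6 libraries, stacked by gene. The BH3-only stack grows from a mean of 58.0 to 134.8 FPKM and its largest part changes from BID to BBC3, while MCL1 and BCL2L1 make up nearly all of the anti-apoptotic stack.

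The transcript table listed 58 RefSeq transcripts of the 10 genes, of which 53 had counts and 43 could be tested. The counts of a transcript are estimates that StringTie made by dividing a gene's reads among its isoforms. At an adjusted p under 0.05, 10 of the 43 were higher, against 15.1% of all transcripts tested, and 2 were lower, against 14.8%. The numbers fell from 12 in all to 8 without untreated library 3 or without rhCYGB library 1. In all 6 fits that left out a library, variant 3 of BCL2L1, variants 1, 2 and 6 of BID, variant 1 of MCL1, variant 4 of BBC3 and the PMAIP1 transcript still passed. BAK1 and PMAIP1 have 1 transcript each, with the same counts as the gene. In the transcript fit BAK1 stood at log2 0.11 (edgeR adjusted p = 0.155) and PMAIP1 at 1.96, below 0.19 and 2.05 in the gene fit. Log2 fold changes of transcripts and genes are therefore not on the same scale. Whether the division of a gene among its transcripts differed was tested with edgeR's diffSpliceDGE, in which 1 of 41 transcripts passed, against 2.4% of all transcripts in that test. It was a transcript of BID.

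One transcript in 41 is no more than the share over all transcripts, and on simulated data this test let through more unchanged transcripts than its nominal rate. The counts and shares of the BID transcripts in each library are therefore given first. Variant 2 (NM_001196), which per GENCODE v29 encodes the full-length protein of 195 residues, had 2149, 2977 and 2520 counts in untreated and 903, 858 and 908 in rhCYGB libraries, a log2 fold change of -1.40 (edgeR adjusted p = 1.16e-04). Variant 6 (NM_001244570) had 49, 32 and 32 counts in untreated and 471, 339 and 378 in rhCYGB libraries, so it rose (log2 3.47, edgeR adjusted p = 9.05e-04) in a gene that fell. Its share of the FPKM of BID was 2.23, 1.11 and 1.25% in untreated and 35.6, 29.1 and 29.7% in rhCYGB libraries.

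In the usage test the log2 fold change of variant 6 was 4.41 above that of BID over its transcripts (diffSpliceDGE adjusted p = 5.28e-04). This compares changes and not levels, and variant 2 remained the most abundant BID transcript in both groups. It spans the same ends as variant 2, is 281 bases shorter, and encodes 99 residues per GENCODE v29. Variant 1 (NM_197966), which encodes 241 residues, had 163, 148 and 182 counts in untreated and 11, 17 and 4 in rhCYGB libraries (log2 -3.79, edgeR adjusted p = 0.00888). The share of variant 2 was 88.9 ± 3.83% in untreated and 62.04 ± 2.45% in rhCYGB cells. By shares of reads instead of FPKM, variant 6 held 1.35 ± 0.512% and 28.6 ± 3.33%.

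**Figure D4:**
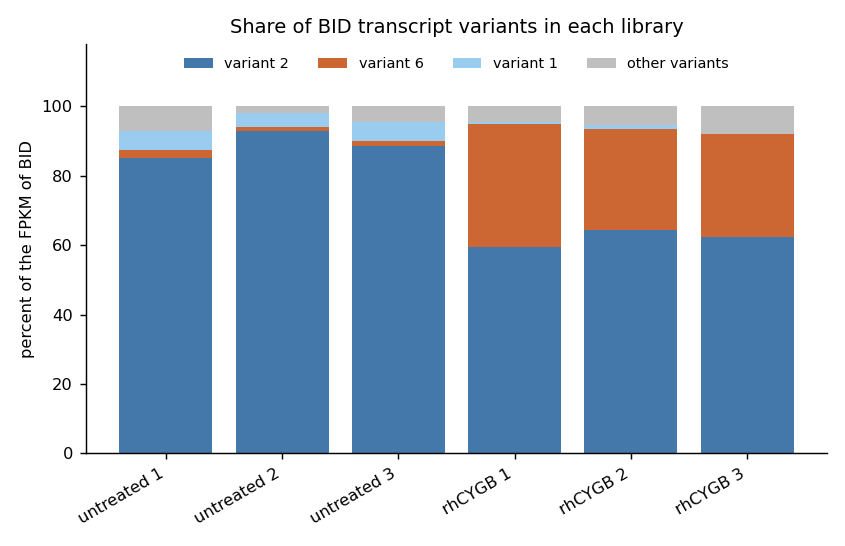
Share of the FPKM of BID held by its transcript variants in each library, in percent. Variant 6 is a thin band of 1.11 to 2.23% in untreated libraries and holds 29.1 to 35.6% in rhCYGB libraries, mostly in place of variant 2.

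BCL2L1 is known for a long protective form, BCL-xL, and a short form that promotes death, BCL-xS. The long form is encoded by several transcripts, of which variant 3 (NM_001317919) held 29.9 ± 8.49% of the FPKM in untreated and 43.8 ± 7.41% in rhCYGB cells, and variant 1 (NM_138578) 23.5 ± 10.2% and 23.9 ± 0.393%. Variant 2 (NM_001191), the BCL-xS transcript of 170 residues, held 4.72, 7.95 and 8.76% in untreated and 7.05, 7.99 and 6.17% in rhCYGB libraries. These shares overlapped, and the usage difference of variant 2 was -0.02 on the log2 scale (diffSpliceDGE adjusted p = 1.00), and its level rose with the gene (log2 1.11, edgeR adjusted p = 0.0253), though in 3 of the 6 fits without a library this did not pass (edgeR adjusted p from 0.0541 to 0.0754, without untreated library 2, rhCYGB library 1 or rhCYGB library 2). Variant 6 (NR_134257), a noncoding transcript, held 6.36 ± 1.75% and 7.11 ± 1.89%. Variants 9, 4 and 5 held between 6.70 and 10.2% on average in untreated and between 3.84 and 5.19% in rhCYGB cells.

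MCL1 was nearly all variant 1 (NM_021960), the long form of 350 residues, with 98.04 ± 1.02% of the FPKM in untreated and 97.5 ± 1.51% in rhCYGB cells. The short form, variant 2 (NM_182763), had 87, 396 and 226 counts in untreated and 138, 330 and 247 in rhCYGB libraries, which overlapped. BBC3 was likewise nearly all variant 4 (NM_014417), which encodes the PUMA protein of 193 residues, with 94.1 ± 6.42% and 98.5 ± 1.01%. For both genes the gene level therefore stands for the main transcript.

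In BCL2 the beta transcript (NM_000657), which encodes 205 residues in place of 239, had 1, 3 and 4 counts in untreated and 46, 15 and 12 in rhCYGB libraries. Its share of the FPKM was 3.87 ± 3.12% in untreated and 36.9 ± 17.6% in rhCYGB cells, and rhCYGB library 1 stood apart at 56.9%. The transcript rose (log2 3.24, edgeR adjusted p = 0.0308), but the difference in usage did not pass (log2 3.38, diffSpliceDGE adjusted p = 0.212). Without rhCYGB library 1 the usage difference 2.63 on the log2 scale (diffSpliceDGE adjusted p = 0.688), and the rise of the transcript passed in 1 of the 6 fits that left out a library (edgeR adjusted p = 0.0837 without rhCYGB library 1). This transcript is far shorter than alpha, 1206 against 6492 bases, and the FPKM of a gene is the sum over its transcripts, so these few counts weigh more in the FPKM of BCL2 than in its read count.

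BCL2L11 has 18 transcripts, which code for several lengths of BIM. Variant 1 (NM_138621), the transcript of BIM-EL with 198 residues, held 55.7 ± 12.3% of the FPKM in untreated and 47.3 ± 7.03% in rhCYGB cells, and rose (log2 1.17, edgeR adjusted p = 0.0165). It did not pass without untreated library 1 or 3 or rhCYGB library 1 (edgeR adjusted p from 0.0548 to 0.0575). Variant 6 (NM_006538), the transcript of BIM-L with 138 residues, held 14.2 ± 9.98% and 12.9 ± 2.49%. Variant 7 (NM_138626) had 38, 0 and 0 counts in untreated and 390, 253 and 423 in rhCYGB libraries, but neither its level (edgeR adjusted p = 0.129) nor its usage (diffSpliceDGE adjusted p = 0.528) passed. Variant 2 (NM_138622) held 7.33 ± 7.55% and 5.48 ± 1.28%.

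BAX was mainly the beta transcript (NM_004324), with 49.2 ± 1.96% and 49.3 ± 0.857% of the FPKM. The alpha transcript (NM_138761), which encodes the canonical 192 residues, held 18.4 ± 2.64% and 16.6 ± 2.11%. The gamma transcript (NM_001291429) had 11.7, 19.1 and 13.7% in untreated and 28.02, 24.06 and 22.9% in rhCYGB libraries, which did not overlap, yet its usage difference of 0.68 on the log2 scale did not pass (diffSpliceDGE adjusted p = 0.877). Variant 1 of BAX (NM_001291428) held 9.27 ± 1.86% and 4.02 ± 1.63% (usage log2 -1.26, diffSpliceDGE adjusted p = 0.922). With limma's diffSplice on voom weights, gamma (adjusted p = 9.88e-05) and variant 1 (adjusted p = 0.0027) did pass, so the usage tests disagreed on both.

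For BMF, variant 2 (NM_033503) had 98, 161 and 151 counts in untreated and 0, 0 and 64 in rhCYGB libraries. Variant 1 (NM_001003940) had 11, 0 and 27 counts in untreated and 105, 78 and 45 in rhCYGB libraries. In rhCYGB library 3 alone both variants had counts within that group, and the usage difference did not pass (log2 3.15 for variant 1, diffSpliceDGE adjusted p = 0.881). When the usage test was repeated with limma's diffSplice on voom weights, 10 member transcripts passed, 3 each of BAX and BID and 2 each of BCL2 and BMF, and BID variant 6 was the one that passed in both.

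The other BCL2 family genes, 13 in all, were led by HRK, which encodes the BH3-only protein Harakiri. It had 31, 67 and 52 counts in untreated and 422, 356 and 417 in rhCYGB libraries, a 9.15-fold rise from a low level (log2 3.19, SE 0.17, edgeR adjusted p = 8.82e-11). Of the 8 that could be tested, 6 passed an adjusted p of 0.05 upward and 2 downward, and HRK was the only one called. The median log2 fold change over the 8 was 0.44. Among all genes tested, 39.0% passed upward and 38.6% downward, and 12.4% were called higher and 14.7% lower. BCL2L2, which encodes the anti-apoptotic BCL-w, rose from 29.8 to 43.1 CPM (log2 0.53, edgeR adjusted p = 4.06e-07). BAD, a BH3-only gene whose protein is held inactive by survival kinases, fell from 23.1 to 20.2 CPM (log2 -0.19, edgeR adjusted p = 0.0158). BCL2L10 had 2 counts in 1 library. BCL2A1, BCL2L14, BCL2L15 and BNIP3 had 0 counts in all 6 libraries, and a count of 0 in these libraries allows at most between 0.0669 and 0.0902 CPM.

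Genes that act on the family were next. Of 24 factors that drive the members' transcription or bind their proteins, 23 could be tested, 15 passed an adjusted p of 0.05 upward and 7 downward, and 8 were called higher and 3 lower. Over all genes tested the shares were 39.0% and 38.6% past the adjusted p, and 12.4% and 14.7% called. Their median log2 fold change was 0.45. ATF3, a factor that stress induces, rose from 5.61 ± 0.933 to 265.9 ± 8.22 CPM (log2 5.57, SE 0.072, edgeR adjusted p = 6.64e-17). DDIT3, which encodes CHOP of the unfolded protein response, had 17.9, 14.3 and 11.8 CPM in untreated and 250.9, 252.9 and 241.2 CPM in rhCYGB libraries (log2 4.09, SE 0.089, edgeR adjusted p = 6.25e-15). ATF4, the main factor of the integrated stress response and an inducer of PMAIP1 and BBC3, rose 3.87-fold from 209.2 to 808.8 CPM.

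MYC, which can sensitize cells to apoptosis, rose by 2.21 on the log2 scale. FOXO3, an inducer of BCL2L11 and BBC3, rose by 1.54, JUN of the AP-1 factor by 1.12, and RELA, the NF-kB subunit that drives BCL2L1, by 1.05. FBXW7, the ubiquitin ligase subunit that marks MCL1 for degradation, rose by 1.16. TP73 (log2 -1.34), FOXO4 (-1.25) and E2F1 (-1.47), which drives S-phase genes, were called lower, the first pair from under 5 CPM.

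The genes after the mitochondrial step moved in both directions. The 20 genes listed for this step were those of the apoptosome, the caspases and their inhibitors, and also of mitochondrial channels and other mitochondrial proteins. At an adjusted p under 0.05, 6 of the 20 were higher and 6 lower, and each direction held some of the channel or other mitochondrial genes. Over all genes tested the shares were 39.0% and 38.6%. The other 8 did not pass, and the median log2 fold change was 0.03. With TMM scaling 12 passed, and 17 passed with upper-quartile factors, total counts or limma on log2 FPKM, so the number depended on the scaling. CYCS, which encodes cytochrome c, had 192.9 CPM in untreated and 197.5 CPM in rhCYGB cells (log2 0.03, edgeR adjusted p = 0.467). APAF1, the scaffold of the apoptosome, had 10.7 and 9.55 CPM (log2 -0.16, edgeR adjusted p = 0.127). CASP9, the caspase that the apoptosome activates, rose 1.70-fold (log2 0.77, edgeR adjusted p = 7.66e-07). XIAP, a caspase inhibitor, rose as well, from 44.6 ± 1.11 to 79.02 ± 1.64 CPM (log2 0.83, edgeR adjusted p = 1.27e-10). The 2 genes called here were both lower, BIRC5, which encodes survivin and is a cell division gene too (log2 -2.21), and CASP2 (log2 -1.08). Among all genes tested, 14.7% were called lower and 12.4% higher.

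**Figure D5:**
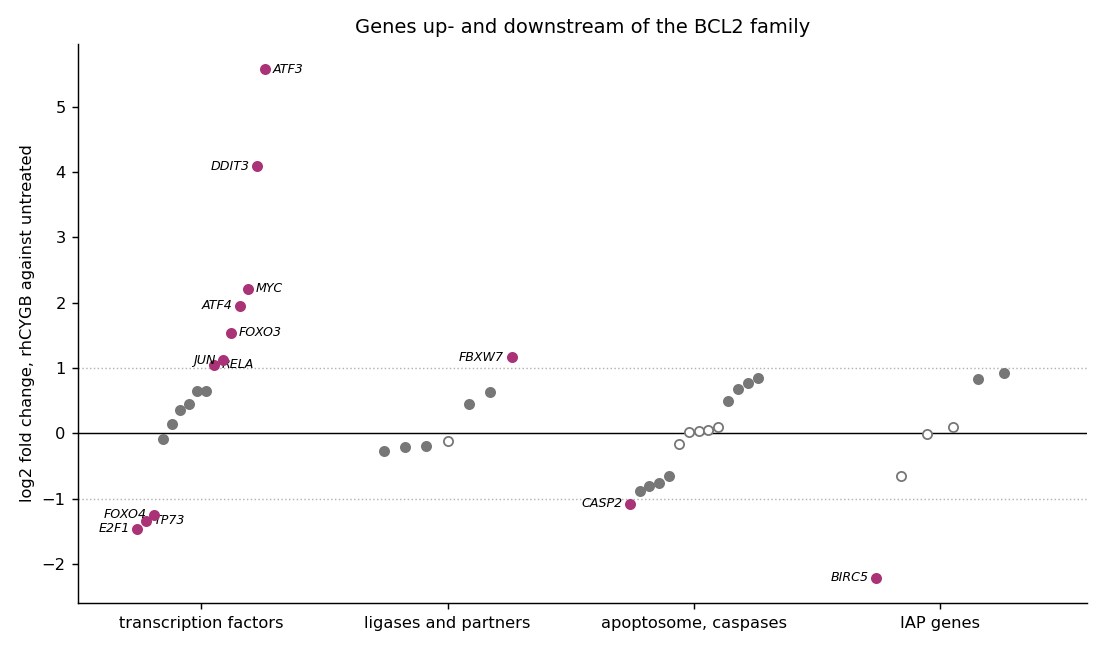
Log2 fold change (edgeR, rhCYGB against untreated) of genes that regulate the family and of genes that act after it, each point a gene; named magenta points were called at 2-fold and an adjusted p under 0.05, open points did not pass, and dotted lines mark 2-fold. The called rises are transcription factors and FBXW7, from RELA at 1.05 to ATF3 at 5.57, and the called falls after the family are CASP2 and BIRC5.

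BBC3 had the largest change of the members, and its pattern over the 6 libraries was compared with those of 11547 genes with a mean count of 100 or more. The measure was the root mean square difference of centered log2 CPM. The closest genes were RPS6KA2 at 0.045, CD55 at 0.054 and ULBP1 at 0.054. RPS6KA2 encodes a ribosomal S6 kinase, CD55 a complement regulator on the cell surface, and ULBP1 a stress-induced ligand of the NKG2D receptor. Their log2 fold changes of 2.56, 2.47 and 2.62 lay on both sides of that of BBC3, so the likeness is mostly that of a rise of the same size.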

How the data were processed

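RNA-seq of 3 untreated and 3 rhCYGB-treated MIA PaCa-2 libraries was used, grouped by their labels. Per the labels, the authors checked reads with FastQC 0.11.7, mapped them with HISAT2 2.1.0 and assembled and quantified transcripts with StringTie 2.1.3b, from a stranded mRNA kit. The authors deposited whole-number read counts per gene and per transcript, without normalization, and the deposited FPKM, which the authors computed, are relative to transcript length and mapped reads. TPM columns, 12 in all, were not used. The labels name the mouse build mm10, but the rows are human RefSeq genes and the positions are not those of GRCh38, so the build is not given in the sources used here and only distances within a gene were taken from them.

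edgeR 4.0.16 (R 4.3.3) was run on all genes and all transcripts after filterByExpr and TMM scaling, with its two-sided quasi-likelihood test, and diffSpliceDGE for transcript usage; DESeq2 1.42.0 and limma 3.58.1 were alternatives. The fits were tested on simulated data, where the usage test let through more unchanged transcripts than its nominal rate. The 95% intervals are those of the fit. Floors of 3 counts per library cover counting error only. The 10 members, the lists of other genes and the tests were chosen with earlier results of these data known. All members were named, with transcripts holding at least 5% of a gene's FPKM in a group, genes of other lists that were called, and BCL2L2, BAD, CASP9, APAF1, CYCS, XIAP and DDIT3 whatever their values; genes and transcripts named as listed at 0, markers, and the short MCL1 transcript stand outside this rule. A few further list genes are counted but not reported here. Coding lengths came from GENCODE v29 through its RefSeq links, and promoters from a RefSeq table (GRCh38.p14). A few reads of BCL2L1, MCL1, BBC3 and BID could belong to overlapping genes, which had 37.3 counts or fewer on average. Every pair of libraries of a group differed beyond counting noise, so none was taken for a second copy, which does not show that cultures were separate. The alternatives were other scalings, tools, filters, the replicate block and leaving out each library, and, chosen after seeing the data, limma's diffSplice and role sums from counts.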

Additional observations from a re-analysis of the deposited data

How the results depend on the processing

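Of 169 values of member fold changes and of the usage of BID variant 6 and BCL2 beta under alternatives, 151 kept their direction and their side of an adjusted p of 0.05, 11 no longer passed, 5 newly passed and 2 changed direction. The number of members called was 4 or 5 and the number past the adjusted p was 7 or 8 over 15 alternatives. The reversed ones were BCL2, at 0.14 with limma on log2(FPKM + 1) and 0.25 on log2(FPKM + 0.1), neither past the threshold. BAX was lower with upper-quartile factors (log2 -0.17), total counts (-0.19) and both FPKM scales (-0.25 and -0.26), and BAK1 did not pass under these 4 (0.05, 0.03, 0.03 and 0.03), which moved the median of all genes by between -0.16 and -0.08. The share of higher among all genes past the adjusted p was 50.2% as reported and 41.02% with total counts. BMF did not pass with DESeq2 (adjusted p = 0.0623), no filter (0.0675), or without untreated replicate 2 or 3 or rhCYGB replicate 1 or 2 (0.0682 to 0.239). With scaled counts per longest transcript, the ratios of rhCYGB to untreated were 1.49 for anti-apoptotic, 1.01 for effector and 2.72 for BH3-only sums, 1.15 for pro-apoptotic over anti-apoptotic and 1.83 for BH3-only over anti-apoptotic, against 1.33, 0.868, 2.32, 1.08 and 1.74 from FPKM; the cause was not tested. Member transcripts past the usage test were 10 with limma's diffSplice and 1 or 2 when a library was left out, and BID variant 6 passed in all 10 alternatives (adjusted p from 7.49e-08 to 0.00936). Libraries with the same replicate number did not deviate together (r from -0.048 to 0.007), which does not show that they were unpaired. The numbers were used as names of libraries, and whether cultures were paired is not given in the sources used here. With the replicate block, 4 members were called, 7 passed the adjusted p, BMF not among them (0.0613), and 7 member transcripts passed in place of 12. Not every library correlated best with its own number. Counts were low for BMF, BCL2 beta and the minor BCL2L11 transcripts, and how far depth or spread between libraries limited them was not tested.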
